A study of Mus musculus with 24 samples.

Results

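The genes followed here are 10 regulators of transcription that set or maintain photoreceptor identity: Nrl, Nr2e3, Crx, Otx2, Rorb, Neurod1, Thrb, Rxrg, Samd7 and Samd11. They were chosen by name, and each has its own row among the 56748 genes counted. RNA was sequenced from the neural retina and from the eye cup, which is the retinal pigment epithelium (RPE), choroid and sclera left after dissection, of 12 mice, giving 24 libraries in 8 groups of 3. PRDM13-OE mice were heterozygous for a dox-inducible human PRDM13 gene at Rosa26, in which a ubiquitous promoter drives rtTA and a TRE3G promoter drives HA-tagged human PRDM13, and the controls were wildtype littermates, all on a C57BL/6J background. Within each genotype, mice were either untreated or drank dox at 2 mg/mL with 10% sucrose for 72 hours, beginning at P28. The inducer is therefore not limited to photoreceptors, low expression without dox is possible, and an effect of dox cannot be told apart from one of sucrose. The human transcript was not analysed here, so the size of the induction in these libraries is not given.

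Photoreceptor precursors become rods or cones according to which of these proteins they make. OTX2 and CRX are homeodomain proteins that switch on photoreceptor genes in both cell types. RORB and NEUROD1 act with them in photoreceptor differentiation, RORB upstream of Nrl. NRL, a basic leucine zipper protein, directs precursors to the rod fate and switches on Nr2e3, whose nuclear receptor product represses cone genes in rods. THRB and RXRG are nuclear receptors that pattern the cone opsins. SAMD7 and SAMD11 are sterile alpha motif proteins that work with polycomb complexes to keep non-rod genes silent in rods.

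The regulators also sit in each other's control regions, and the letters of the sites most relevant to the homeodomain members are shown for that reason. All 10 members had promoters in the RefSeq table (build GRCm38.p6, 300 bases from 250 before to 50 after the start, 16 promoters in all), and these were placed on GRCm39 by exact match. TAATCC, the core that CRX and OTX2 bind, was searched on both strands. It stood in 5 of the 16 member promoters, 1 promoter in each of 5 members, and in 7.06% of all 32851 promoters. The 7 occurrences are printed 5′ to 3′ on the strand of the gene, as windows of 30 bases with TAATCC or its reverse complement GGATTA in capitals.
Samd11, chr4:156340578-156340607, minus strand: tctcacgccgatTAATCCtataaagtactt
Samd11, chr4:156340452-156340481, minus strand: ggtgccagccctGGATTAgcccggctccag
Samd7, chr3:30800291-30800320, plus strand: aaggctaaggaaGGATTAtgctaaaggcta
Crx, chr7:15613957-15613986, minus strand: gtgggggtggtgGGATTAagcagacggtgc
Crx, chr7:15613884-15613913, minus strand: ccaccttccctgGGATTAcccttccagatc
Otx2, chr14:48902760-48902789, minus strand: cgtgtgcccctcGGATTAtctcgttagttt
Thrb, chr14:4808765-4808794, minus strand: cgtgacgcggcgGGATTAactttgcatggc

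The Samd7 window and the first Crx window lie upstream of the annotated gene, and the other 5 overlap an annotated exon of their own gene. Searched the same way, TGCTGA, an NRL half-site, stood in 5 of the 16 promoters against 19.5% of all promoters. The nuclear receptor half-site AGGTCA stood in 3 against 16.3%, and AAGTCA, a site type bound by NR2E3, in 0 against 15.1%. These matches are letters only and were not tested as binding sites. For Nr2e3, the member with the largest fold change in the retina below, the 183 promoter bases that overlap no annotated exon are shown. They precede the RefSeq start, lie in an intron of a longer annotated transcript, and hold none of the 4 motifs.
Nr2e3, chr9:59857430-59857612, minus strand: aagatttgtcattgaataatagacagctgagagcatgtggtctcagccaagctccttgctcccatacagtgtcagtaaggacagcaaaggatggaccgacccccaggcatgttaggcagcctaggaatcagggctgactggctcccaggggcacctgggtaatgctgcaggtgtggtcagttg

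Between 16034800 and 21513207 reads per retina and between 15825059 and 24908314 per eye cup were counted on genes. Levels are given as CPM, counts scaled for depth with edgeR's TMM factors within a tissue, or, where genes are compared with each other, as the authors' FPKM, which also divides by gene length. The test was the quasi-likelihood F test of edgeR. A gene passed at a Benjamini-Hochberg adjusted p under 0.05 over all genes tested, and a DEG was in addition more than 1 away from 0 in log2-fold change. Lens RNA differed between groups. The 8 lens crystallins summed to 10656, 4448 and 96.7 CPM in the 3 wildtype dox retinas, to between 3.23 and 23.8 CPM in the PRDM13-OE dox retinas, and to between 4.44 and 771 CPM in the untreated retinas. In RNA of whole tissue, fewer cells of a type and less RNA per cell cannot be told apart. In sections after the same time on dox, the authors detected no change in thickness of the outer nuclear layer, which holds the photoreceptors. Cell numbers were not tested here.

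On the FPKM scale, Nrl and Crx were the most abundant members in the untreated wildtype retina, at 382 ± 8.05 and 345 ± 21.4 FPKM (SD, n = 3). Nr2e3 followed at 157 ± 14.4 FPKM and Neurod1 at 116 ± 8.34 FPKM. The polycomb partner Samd11, at 52.5 ± 4.39 FPKM, was above its relative Samd7, at 33.5 ± 1.46 FPKM, with Otx2 between them at 44.7 ± 1.12 FPKM. Rorb stood at 21.6 ± 2.54 FPKM, and the cone patterning receptors Thrb and Rxrg were lowest, at 10.4 ± 0.82 and 4.94 ± 0.57 FPKM. The 3 retinas of each member did not overlap those of its neighbour anywhere in this order. In the PRDM13-OE dox retinas the order was different. Crx, at 302 ± 4.95 FPKM, stood above Nrl, at 273 ± 8.32 FPKM. Neurod1, at 99.8 ± 3.15 FPKM, stood above Nr2e3, at 50.3 ± 5.43 FPKM, whose retinas overlapped those of Otx2. Samd11, at 19.9 ± 2.15 FPKM, was below Samd7 and overlapped Rorb.

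**Figure D1:**
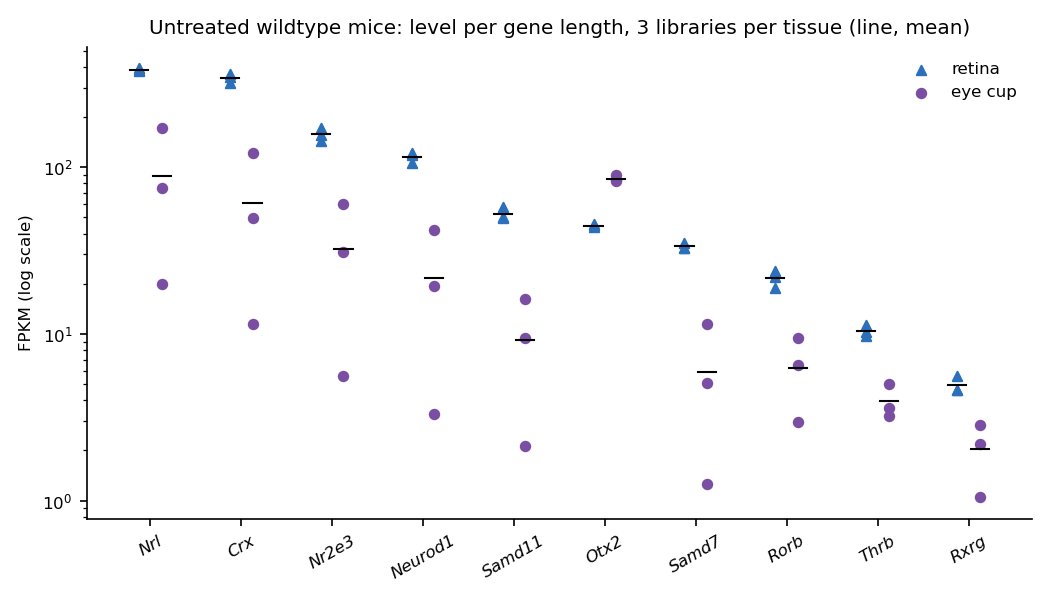
FPKM on a log axis for the 10 regulators in untreated wildtype mice, with 3 retinas (triangles) and 3 eye cups (circles) per gene and a line at each mean. Otx2 is the member whose eye cups, at 82.2 to 90.0 FPKM, all lie above its retinas, at 43.5 to 45.8 FPKM.

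The first question was which regulators differed between PRDM13-OE and wildtype retinas when both had received dox. The rod regulators Nrl and Nr2e3 and the polycomb partner Samd11 fell in PRDM13-OE, and Otx2, Rorb and Thrb rose. Crx, Neurod1, Rxrg and Samd7 did not pass the test. Thus 3 of 10 members passed as lower, where 7.51% of the 20560 genes tested did, and 3 of 10 passed as higher, where 5.01% did. With library size in place of TMM the same 6 members passed in the same directions, whereas the split of all genes went from 1030 higher and 1545 lower to 2175 higher and 1007 lower, and the median of all genes to 0.09. Nr2e3 and Samd11 were DEGs, both lower, as were 1.50% of all genes tested. The median log2-fold change was −0.06 over the 10 members and 0.01 over all genes.

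Nr2e3 (ENSMUSG00000032292, chr9:59850054-59867942, minus strand), the nuclear receptor that represses cone genes in rods, was counted at 187, 167 and 208 CPM in the 3 PRDM13-OE dox retinas and at 445, 455 and 574 CPM in the 3 wildtype dox retinas. The untreated retinas held between 524 and 687 CPM. Every PRDM13-OE dox retina was therefore below the other 9, and the lowest value of those 9 was more than double the highest PRDM13-OE dox value. The log2-fold change against wildtype dox was −1.40 (95% confidence interval −1.61 to −1.18, edgeR adjusted p = 3.78e-06). The fall passed under all 16 alternatives tried, between −1.79 and −1.27. The lncRNA genes Gm7616 and Gm15507, which overlap Nr2e3, had counts equal to 0.49% and 0.26% of its own and also fell, by 1.11 and 1.82 on the log2 scale (edgeR adjusted p = 0.0464 and 0.0256).

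Samd11 (ENSMUSG00000096351, chr4:156331423-156340717, minus strand) was counted at 75.0, 73.1 and 89.1 CPM in the PRDM13-OE dox retinas and at 184, 189 and 211 CPM in the wildtype dox retinas. Untreated retinas held between 193 and 231 CPM, so that here too the 3 PRDM13-OE dox retinas lay below all others. The log2-fold change was −1.30 (95% confidence interval −1.48 to −1.13, edgeR adjusted p = 1.49e-06), and it stayed between −1.53 and −1.22 under the 16 alternatives, all of which it passed. Samd11 overlaps Noc2l and the lncRNA gene Gm47252 on the other strand, and because it is not known whether strand was used in counting, reads of the pair may have been split. Noc2l had 20.2% of the reads of Samd11 and did not pass, at −0.02 ± 0.06 on the log2 scale (SE, adjusted p = 0.867 by edgeR). Gm47252, with 1.42% of the reads of Samd11, fell by 1.67 on the log2 scale (SE 0.36, edgeR adjusted p = 0.0111). The relative of Samd11, Samd7 (ENSMUSG00000051860, chr3:30800442-30821323, plus strand) was at 133, 119 and 143 CPM in PRDM13-OE dox and at 140, 120 and 114 CPM in wildtype dox. These overlapped, and the log2-fold change was 0.07 (95% confidence interval −0.11 to 0.25, edgeR adjusted p = 0.657).

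Nrl (ENSMUSG00000040632, chr14:55756435-55762438, minus strand), which directs precursors to the rod fate, was at 1703, 1672 and 1779 CPM in the PRDM13-OE dox retinas. The wildtype dox retinas were at 2439, 2484 and 2359 CPM and the untreated ones between 2313 and 2625 CPM, with no overlap. Its log2-fold change was −0.50 (95% confidence interval −0.58 to −0.43, edgeR adjusted p = 2.28e-06), which passed under all 16 alternatives and was under the cutoff for a DEG. Summed over 10 rod genes, the PRDM13-OE dox retinas held 48464 to 55219 CPM and the wildtype dox retinas 65763 to 67376 CPM, and 8 of the 10 passed as lower. Among them Sag, rod arrestin, fell by 0.48 on the log2 scale (SE 0.08, edgeR adjusted p = 0.00173) and Cnga1, a subunit of the rod channel, fell by 0.48 (SE 0.05, edgeR adjusted p = 3.63e-05).

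Rorb (ENSMUSG00000036192, chr19:18907969-19088560, minus strand), an orphan nuclear receptor that acts early in the photoreceptor lineage, was at 257, 268 and 274 CPM in PRDM13-OE dox and at 210, 225 and 172 CPM in wildtype dox. It rose by 0.39 on the log2 scale (95% confidence interval 0.22 to 0.57, edgeR adjusted p = 0.00765). The untreated wildtype retinas, at 288, 268 and 227 CPM, covered the PRDM13-OE dox values. With all 12 retinas in the fit the adjusted p for Rorb was 0.0527. Without the wildtype dox retinas 1 and 2, the pair with most lens RNA, the log2-fold change was 0.63 (edgeR adjusted p = 8.12e-06), more than 1.5 times the value with them. With the crystallin level as a covariate, in a fit over all 12 retinas, it was 0.87 (edgeR adjusted p = 0.00346).

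Thrb (ENSMUSG00000021779, chr14:4431611-4809435, minus strand), the thyroid hormone receptor needed for the green cone opsin, was at 91.7, 86.7 and 103 CPM in PRDM13-OE dox and at 69.7, 77.0 and 80.2 CPM in wildtype dox. It rose by 0.31 on the log2 scale (95% confidence interval 0.14 to 0.47, edgeR adjusted p = 0.019). Otx2 (ENSMUSG00000021848, chr14:48895134-48911276, minus strand) was at 211, 207 and 217 CPM against 178, 188 and 190 CPM and rose by 0.19 (95% confidence interval 0.08 to 0.30, edgeR adjusted p = 0.0281). Its antisense gene Otx2os1, with 10.2% of the reads of Otx2, stood at 0.13 ± 0.08 on the log2 scale (SE, adjusted p = 0.351 by edgeR). Neither group overlapped the other for Thrb or Otx2, but the differences were small. The untreated wildtype retinas overlapped the PRDM13-OE dox values for both, at 77.8, 92.8 and 82.0 CPM for Thrb and at 205, 204 and 209 CPM for Otx2. The calls also depended on single libraries, while without 1 library each the log2-fold change stayed between 0.23 and 0.35 for Thrb and between 0.16 and 0.21 for Otx2. The call for Thrb was lost without PRDM13-OE dox retina 3 (edgeR adjusted p = 0.0812) or wildtype dox retina 1 (0.0593), and that for Otx2 without any 1 of the 6 retinas other than wildtype dox retina 3. With the summed crystallin level as a covariate, Thrb stood at 0.16 (edgeR adjusted p = 0.634) and Otx2 at 0.09 (0.671), and without wildtype dox retinas 1 and 2 at 0.22 (0.152) and 0.15 (0.165).

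Crx (ENSMUSG00000041578, chr7:15599872-15613893, minus strand) was at 1043, 1046 and 1079 CPM in PRDM13-OE dox and at 1089, 1099 and 1091 CPM in wildtype dox, without overlap. The 95% confidence interval of its log2-fold change, −0.05, ran from −0.13 to 0.02 (edgeR adjusted p = 0.339), so that of all members its difference was bounded most tightly together with that of Nrl. Neurod1 (ENSMUSG00000034701, chr2:79282865-79287095, minus strand), at 293, 298 and 313 CPM against 316, 312 and 320 CPM, overlapped and had an interval from −0.17 to 0.03 (edgeR adjusted p = 0.351). It overlaps Cerkl on the same strand, which had 4.11% of its reads and did not pass (−0.21 ± 0.12 SE on the log2 scale, edgeR adjusted p = 0.278). Rxrg (ENSMUSG00000015843, chr1:167425953-167467192, plus strand), the cone retinoid receptor, was counted on 164 to 286 reads per retina. It stood at 9.65, 9.39 and 9.33 CPM against 9.66, 12.4 and 9.82 CPM, with an interval from −0.45 to 0.10 (edgeR adjusted p = 0.42).

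**Figure D2:**
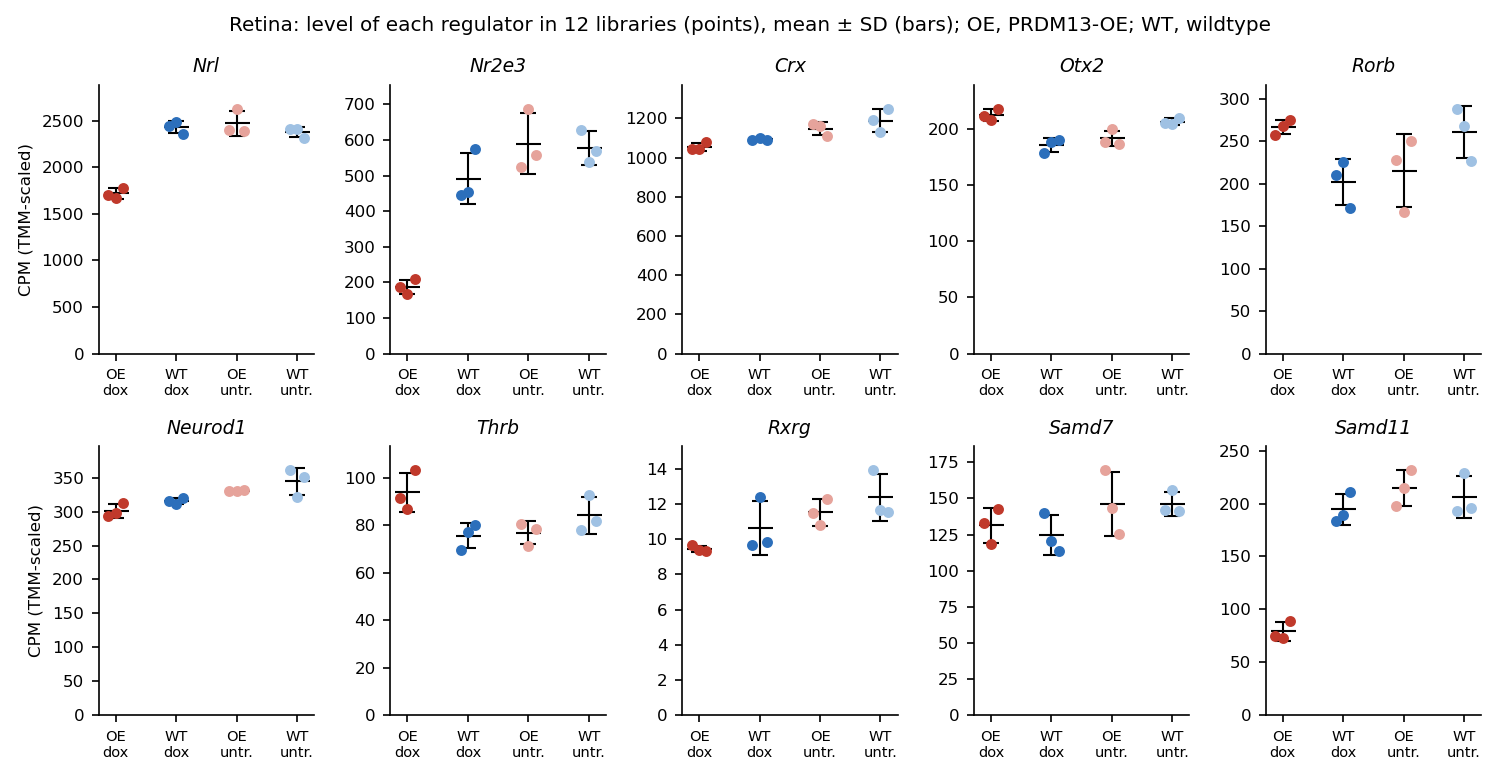
CPM (TMM-scaled, linear axes from 0) of the 10 regulators in 12 retinas, as points for PRDM13-OE dox (OE dox), wildtype dox (WT dox) and both untreated groups, with mean ± SD. The 3 OE dox points of Nr2e3 (167 to 208 CPM), Samd11 (73.1 to 89.1 CPM) and Nrl (1672 to 1779 CPM) lie below all other retinas.

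Untreated PRDM13-OE retinas are a second control, and they carry the same insert and little lens RNA. Against them, Nr2e3, Samd11 and Nrl fell again in the PRDM13-OE dox retinas, so that 3 of 10 members passed as lower where 2.96% of 20603 genes did. None passed as higher, where 2.04% of genes did. The log2-fold changes were −1.66 for Nr2e3 (95% confidence interval −1.87 to −1.44), −1.44 for Samd11 (−1.62 to −1.26) and −0.53 for Nrl (−0.64 to −0.42), with edgeR adjusted p values of 7.06e-07, 5.17e-07 and 3.88e-05. Nr2e3 and Samd11 were DEGs, as were 0.621% of genes in that direction. Thrb was at 0.29 (95% confidence interval 0.12 to 0.45, edgeR adjusted p = 0.0512), Rorb at 0.31 (adjusted p = 0.182) and Otx2 at 0.15 (adjusted p = 0.198), none of which passed. By DESeq2, Thrb passed as well, at 0.28 (adjusted p = 0.0151), where 2.23% of genes passed as higher. This comparison shares the PRDM13-OE dox retinas with the one above.

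Dox without the insert was examined in wildtype retinas. No member passed between wildtype dox and untreated wildtype, and 0.00485% of 20631 genes did. By edgeR, 6 of the 10 members had an unadjusted p under 0.05, as did 9.32% of genes. DESeq2 called 1 of the 10, Rorb (adjusted p = 0.0375), and 0.451% of genes. The log2-fold changes ran from −0.37 for Rorb to 0.03 for Nrl, with a median of −0.15. Rorb had the lowest edgeR adjusted p, 0.304, and Nr2e3 was at −0.23 (95% confidence interval −0.43 to −0.03, adjusted p = 0.456). Without wildtype dox retina 3, Nr2e3 stood at −0.36 and passed (edgeR adjusted p = 0.0468), where 0.0642% of genes passed as lower. The insert without dox was examined between the untreated groups. Again no member passed by edgeR, and 0.00484% of 20668 genes did. No member had an unadjusted p under 0.05 and 3.76% of genes did, and DESeq2 called no member and 0.0194% of genes. Log2-fold changes ran from −0.27 for Rorb to 0.06 for Samd11 (all edgeR adjusted p values at 0.995 or above).

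**Figure D3:**
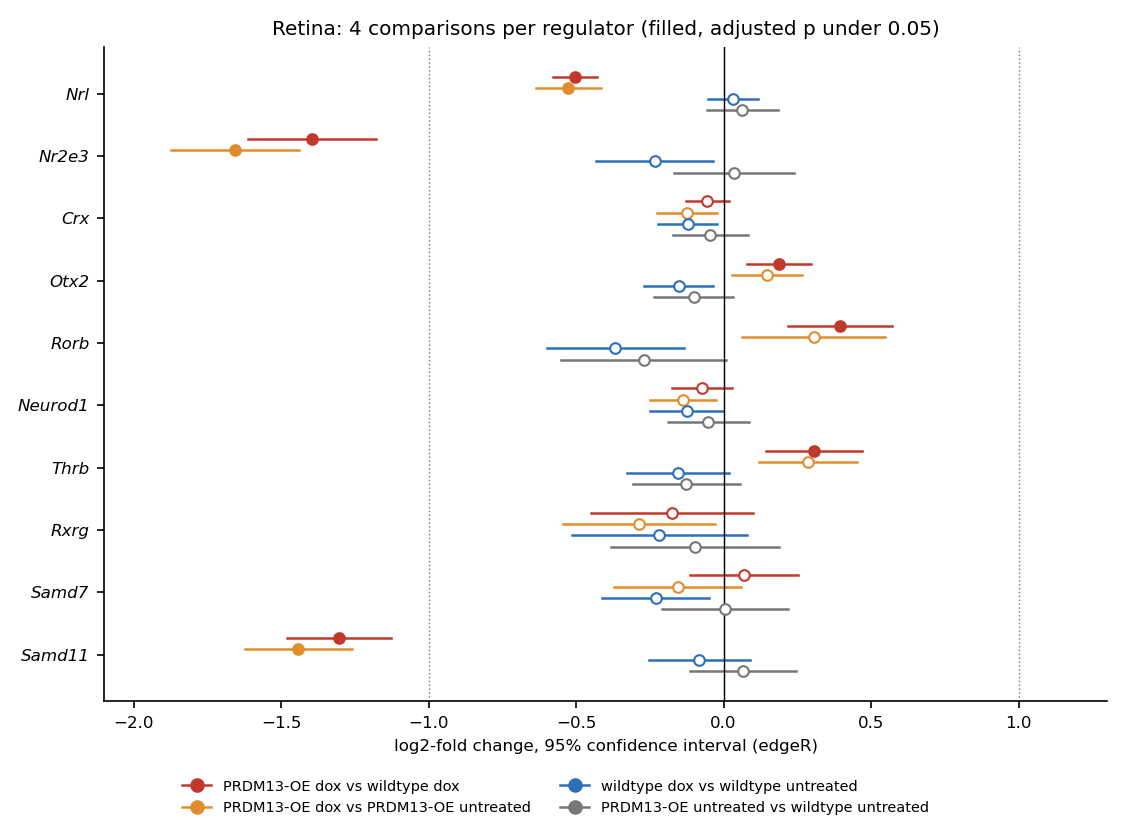
Log2-fold change (x axis) with 95% confidence interval for each regulator in 4 retina comparisons, filled where the edgeR adjusted p was under 0.05, with dotted lines at −1 and 1. Nr2e3, at −1.40 and −1.66, and Samd11, at −1.30 and −1.44, lie past −1 in both comparisons of PRDM13-OE dox retinas and were not called in the other 2, where the interval of Nr2e3 with dox in wildtype ran from −0.43 to −0.03.

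Whether dox had a different effect in PRDM13-OE than in wildtype retinas was tested with the interaction over 12 retinas. The dox effect differed for the 6 members named above. It was lower in PRDM13-OE by 1.42 on the log2 scale for Nr2e3, 1.36 for Samd11 and 0.56 for Nrl (edgeR adjusted p = 2.41e-05, 4.42e-06 and 4.82e-05). Of 22538 genes, 1.83% passed in that direction, and 0.515% did so with a log2 value past −1, as Nr2e3 and Samd11 did. The effect was higher by 0.68 for Rorb, 0.44 for Thrb and 0.30 for Otx2 (edgeR adjusted p = 0.0414, 0.0496 and 0.0304), the direction in which 1.19% of genes passed. In wildtype, these 3 had log2-fold changes of −0.37, −0.15 and −0.15 with dox. Nr2e3, Samd11 and Nrl passed under all 21 alternatives, and Rorb, Thrb and Otx2 each under 9 of 21. Any 1 of the 3 PRDM13-OE dox retinas or wildtype dox retina 1, when left out, left 3 members that passed.

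The genes whose pattern over the 12 retinas was most like that of the 2 DEGs were picked as those with the smallest root mean square difference in centred log2(CPM + 0.5), among 10212 other genes with a mean of at least 10 CPM. For Nr2e3 they were Opn1mw, the green cone opsin, with a difference of 0.16, Samd11 with 0.17 and Acsl1, a long-chain acyl-CoA synthetase, with 0.18. The SD of Nr2e3 itself on this scale was 0.69. For Samd11, whose own SD was 0.60, they were Nxnl2, a thioredoxin-like photoreceptor gene, with 0.09, Susd3 with 0.10 and Ankrd33 with 0.12.

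In the eye cup, most members moved with the rod genes, which are not expressed by RPE, choroid or sclera and which varied widely between samples. Rod genes summed to between 2812 CPM, in untreated wildtype eye cup 2, and 43808 CPM, in wildtype dox eye cup 1, against 48464 to 71366 CPM in retinas. Over the 12 eye cups, log2(CPM + 0.5) of the 9 members other than Otx2 correlated with that of the rod genes. Pearson's r was between 0.745 for Rxrg and 0.998 for Nrl, and Spearman's rho between 0.713 and 0.979, where permutation p values adjusted over the 10 members were between 2e-05 and 0.0129. The smallest p these permutations can give is 1e-05 before adjustment. They shuffled the 12 eye cups without regard to group, although the mean rod sum ran from 12067 CPM in untreated wildtype to 33319 CPM in wildtype dox. Without PRDM13-OE dox eye cup 2 and untreated wildtype eye cup 2, which lie farthest from the median, r was between 0.61 and 0.996. For Otx2, which RPE cells also express, r was −0.447 and rho −0.385 (permutation p = 0.144 and 0.218).

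**Figure D4:**
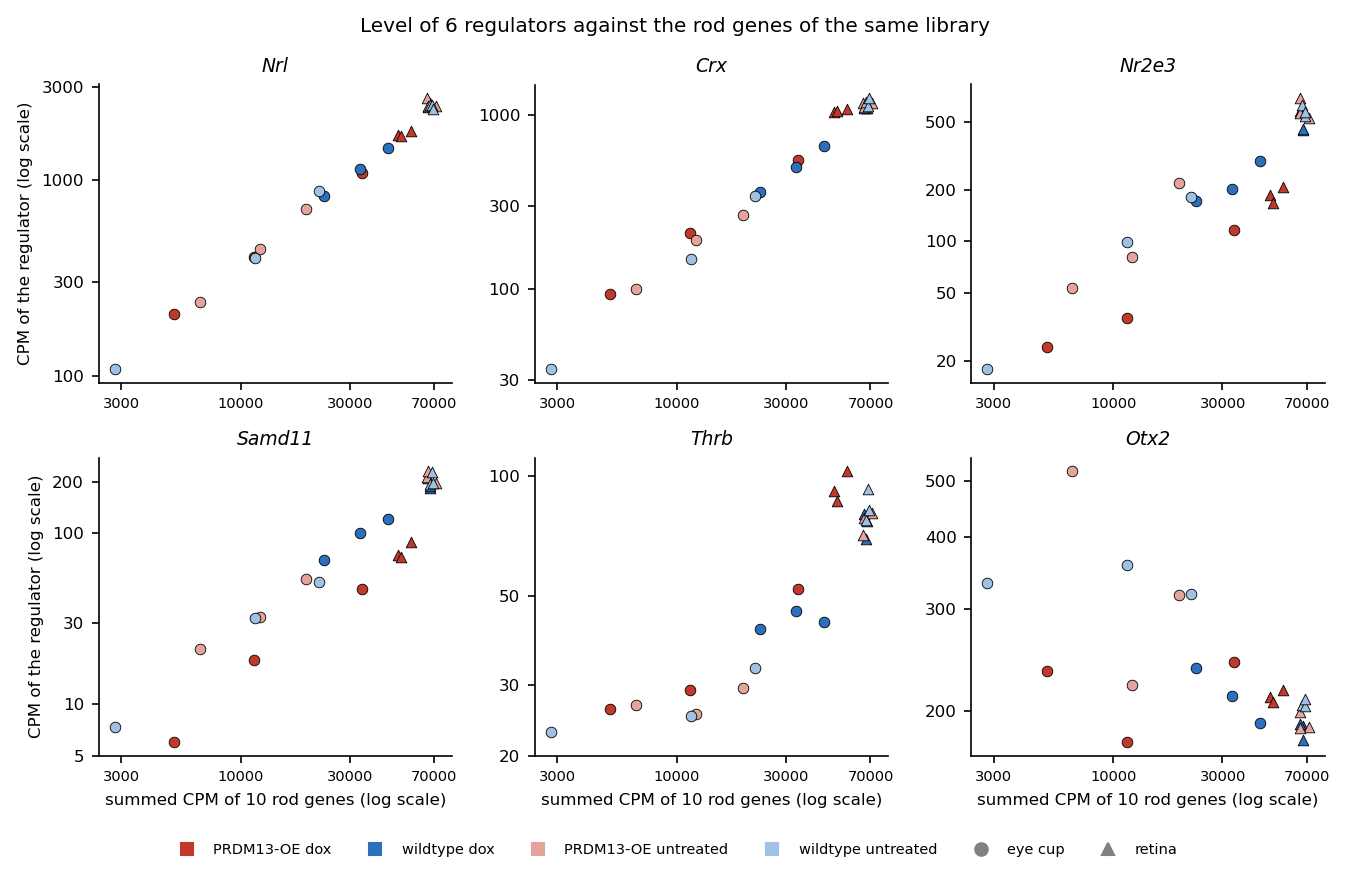
CPM of 6 regulators (y axis, log scale) against the summed CPM of 10 rod genes in the same library (x axis, log scale), for 12 eye cups (circles) and 12 retinas (triangles), coloured by group. Nrl lies along 1 line for all groups, Nr2e3 and Samd11 of PRDM13-OE dox libraries lie below the others at a like rod level, and Otx2 does not rise with the rod genes.

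Between PRDM13-OE dox and wildtype dox eye cups no member passed, and 0.0184% of 21758 genes did. By edgeR, 2 of 10 members had an unadjusted p under 0.05, as did 8.24% of genes, and DESeq2 called no member and 0.547% of genes. Nr2e3 was at 36.0, 24.2 and 117 CPM in PRDM13-OE dox and at 294, 203 and 172 CPM in wildtype dox, a log2-fold change of −1.87 (95% confidence interval −3.24 to −0.49, edgeR adjusted p = 0.597). Samd11 was at 18.2, 6.03 and 47.0 CPM against 121, 101 and 70.1 CPM, a log2-fold change of −1.98 (95% confidence interval −3.53 to −0.43, edgeR adjusted p = 0.597). Nrl, at 406, 207 and 1091 CPM against 1454, 1140 and 829 CPM, and Crx, at 209, 93.3 and 552 CPM against 661, 499 and 363 CPM, overlapped between groups. These calls turned on PRDM13-OE dox eye cup 3. It held 33798 CPM of rod genes, beside 11442 and 5116 CPM in the other PRDM13-OE dox eye cups, and without it Nrl, Nr2e3, Crx and Samd11 passed at −1.86, −2.85, −1.71 and −2.96 (edgeR adjusted p = 0.0335, 0.0122, 0.0472 and 0.0212). In that fit 6.91% of 21237 genes passed as lower, so that the number of calls rose over all genes and not for the members alone. With the rod gene level as a covariate over all 12 eye cups the values were −0.06, −0.87, 0.16 and −1.16 (adjusted p = 0.983, 0.611, 0.932 and 0.0946).

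Each member's level was therefore also taken relative to the summed rod genes of the same library. In the retina, Nr2e3 was at 0.386%, 0.334% and 0.377% of the rod sum in PRDM13-OE dox and at 0.664%, 0.675% and 0.872% in wildtype dox. The eye cups of the same mice gave 0.314%, 0.472% and 0.347% against 0.672%, 0.611% and 0.748%. Samd11 was at 0.155%, 0.146% and 0.161% against 0.274%, 0.280% and 0.321% in the retina, and at 0.159%, 0.118% and 0.139% against 0.277%, 0.304% and 0.305% in the eye cup. In both tissues, neither gene overlapped between the groups. The differences in log2 were −1.0 in the retina and −0.84 in the eye cup for Nr2e3, and −0.91 and −1.05 for Samd11 (exact permutation test, two-sided, p = 0.1 for each, the smallest p that 3 against 3 libraries allow). Nrl differed by −0.11 in the retina, where its groups did not overlap either, and by 0.06 in the eye cup, where they did (exact permutation test, p = 0.1 and 0.7). The other 7 members had higher means relative to the rod genes than in wildtype dox, by 0.23 to 0.79 in the retina and by 0.20 to 1.38 in the eye cup (exact permutation test, p = 0.1 or 0.2). The groups overlapped for Rxrg in the retina and for Otx2 and Thrb in the eye cup. Set beside the untreated libraries, the PRDM13-OE dox ratios lay above them in the retina for all of these but Rxrg, which overlapped. In the eye cup they overlapped the untreated ratios for Otx2, Rorb, Neurod1, Thrb, Rxrg and Samd7, and only Crx lay above. The 1.38 was that of Otx2, which did not follow the rod genes in the eye cup, and the next were Rxrg (1.17) and Thrb (1.02). The log2-fold changes of Rxrg and Thrb in the eye cup without the ratio were −0.08 and −0.24 (adjusted p values of 0.951 and 0.778 by edgeR), and the mean rod sum there was 16785 CPM in PRDM13-OE dox and 33319 CPM in wildtype dox. Since the rod sum was lower in PRDM13-OE dox in both tissues, these values are relative to that difference, and retina and eye cup of a mouse are not independent.

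**Figure D5:**
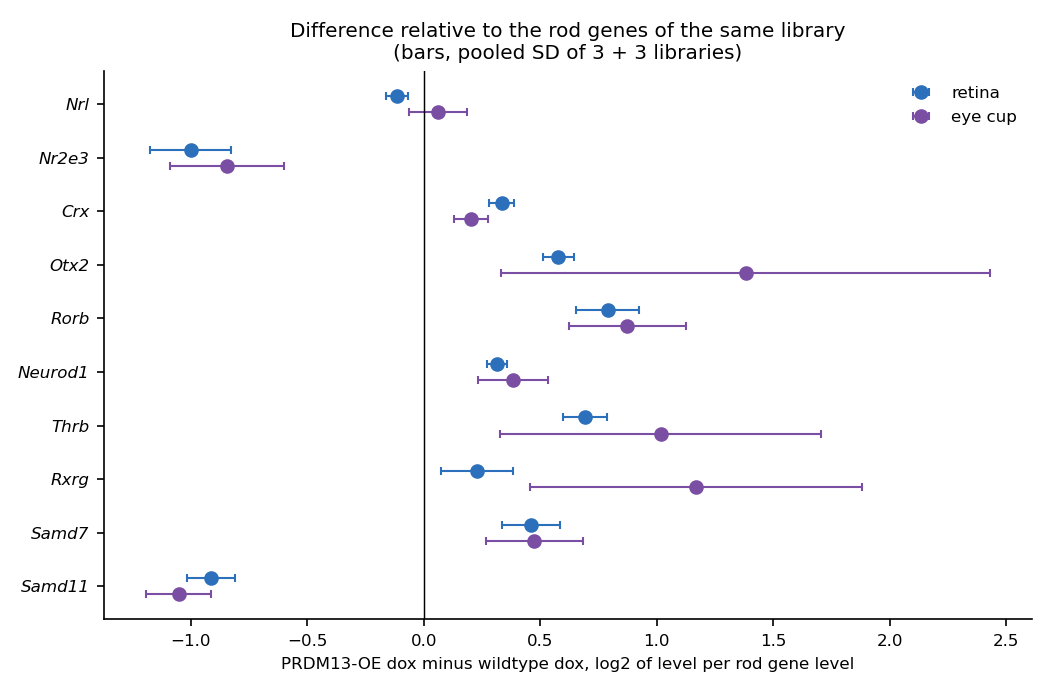
Difference between PRDM13-OE dox and wildtype dox in log2 of level per rod gene level (x axis), for each regulator in retina and eye cup, with bars for the pooled SD of 3 + 3 libraries. Nr2e3 (−1.0 and −0.84) and Samd11 (−0.91 and −1.05) lie below 0 in both tissues, and the 7 members other than these and Nrl lie above 0 in both.

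The genotype effect was not shown to differ between tissues. In the model over the 12 libraries of the 6 dox mice, with the mouse as a term, no member and 0% of 23678 genes passed by edgeR. The retina minus eye cup difference ran from −0.02 for Rxrg to 1.05 for Samd11, 1 member and 5.32% of genes had an unadjusted p under 0.05, and the adjusted p values were 0.749 or above. DESeq2 called no member and 0.0380% of genes. Leaving out either library of PRDM13-OE dox mouse 3 took that mouse out of the comparison, and 7 members then passed, at 0.93 to 1.79 on the log2 scale, where 6.84% and 6.96% of all genes passed as higher in the fits without its retina and without its eye cup.

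Otx2 was the only member higher in the eye cup than in the retina of untreated wildtype mice, at 85.4 ± 4.08 against 44.7 ± 1.12 FPKM. For each of the other 9, all 3 retinas were above all 3 eye cups, among which the levels varied widely, as with Nrl at 171, 19.9 and 74.6 FPKM and Samd11 at 16.1, 2.13 and 9.46 FPKM. In the eye cup, Otx2 was at 190, 212 and 237 CPM in wildtype dox and at 318, 333 and 358 CPM in untreated wildtype. The log2-fold change was −0.68 (95% confidence interval −1.04 to −0.32, edgeR adjusted p = 0.0673), which did not pass, and 0% of 21799 genes passed, although 3 of 10 members and 29.9% of genes had an unadjusted p under 0.05. DESeq2 called 18.5% of genes there and 3 of the 10 members, Otx2 (−0.67, adjusted p = 0.00118), Thrb (0.67, adjusted p = 0.0249) and Samd11 (1.65, adjusted p = 0.0293). The rod sum averaged 33319 CPM in wildtype dox and 12067 CPM in untreated wildtype eye cups, and with the rod level as a covariate in edgeR Samd11 stood at 0.18 (adjusted p = 0.962) and Thrb at 0.26 (adjusted p = 0.932). Among the PRDM13-OE eye cups, Otx2 was at 177, 235 and 243 CPM with dox and at 222, 317 and 519 CPM untreated, a log2-fold change of −0.72 (95% confidence interval −1.60 to 0.16, edgeR adjusted p = 0.975). The members' log2-fold changes there ran from −1.02 for Nr2e3 to 0.66 for Neurod1, with Samd11 at −0.61, Nrl at 0.27 and Crx at 0.60 (edgeR adjusted p of 0.975 or above for all members). No member and 0.0139% of 21604 genes passed there by edgeR, no member and 4.14% of genes had an unadjusted p under 0.05, and DESeq2 called no member and 0.250% of genes. None of 6 RPE genes passed by edgeR between dox and untreated eye cups of either genotype, with medians of −1.05 in wildtype and −0.92 in PRDM13-OE. In the order in which the Otx2 values are given, their sum was 2822, 4143 and 6439 CPM in wildtype dox and 7848, 13581 and 12204 CPM in untreated wildtype. It was 2653, 5263 and 2391 CPM in PRDM13-OE dox and 7730, 8722 and 16221 CPM in untreated PRDM13-OE. None of the RPE genes was at 0 throughout a group, and their part in the Otx2 values was not tested. Between the untreated eye cups of the 2 genotypes, no member and 0% of 21588 genes passed by edgeR, no member and 1.87% of genes had an unadjusted p under 0.05, and DESeq2 called no member and 0.0139% of genes. The members' log2-fold changes ran from −0.08 to 0.29.

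Other regulators of the same network were counted from lists, to be read against the 7.51% of all genes that passed as lower and the 5.01% that passed as higher in PRDM13-OE dox against wildtype dox. For the counts against untreated PRDM13-OE the shares were 2.96% and 2.04%, and for those in the interaction 1.83% and 1.19%. In the comparison of PRDM13-OE dox with wildtype dox retinas, 7 of 20 further photoreceptor regulators fell and 2 rose, with a median log2-fold change of −0.15. The largest were Prdm1 (−1.24 ± 0.12 SE), which holds photoreceptor precursors from the bipolar fate, the MADS box factors Mef2c (−1.19 ± 0.09) and Mef2d (−0.93 ± 0.05), which bind with CRX, and the zinc finger gene Casz1 (−0.85 ± 0.06), with edgeR adjusted p values between 2.72e-07 and 4.58e-05. Of 21 polycomb genes, the complexes with which SAMD7 and SAMD11 work, 4 rose and none fell, while 1 passed as higher against untreated PRDM13-OE and 0 passed in the interaction. The 4 were the methyltransferase Ezh2 (0.54 ± 0.16 SE), Phc1 (0.41 ± 0.09), Ring1 (0.23 ± 0.07) and Bmi1 (0.21 ± 0.06), with edgeR adjusted p values between 0.00962 and 0.0428, and the list's median was 0.10. Among 12 nuclear receptor partners and hormone enzymes, Rara (−0.29 ± 0.07 SE) and Rxra (−0.21 ± 0.06) fell and Rxrb (0.22 ± 0.06) rose, and the median was −0.08. None of the 12 passed against untreated PRDM13-OE or in the interaction by edgeR. Of the 20 further photoreceptor regulators, 7 passed as lower and 0 as higher against untreated PRDM13-OE, and 6 and 0 in the interaction.

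Cone genes, which THRB and RXRG pattern and NR2E3 represses in rods, fell in 8 of 10 cases and rose in 1, with a median of −1.21, and 8 and 7 passed as lower, and 1 as higher, against untreated PRDM13-OE and in the interaction. The gene that rose, named after its values were seen, was Pde6c, a subunit of the cone phosphodiesterase, at 1.31 ± 0.09 (SE), 1.37 ± 0.08 and 1.62 ± 0.14 on the log2 scale in the 3 comparisons (edgeR adjusted p = 2.26e-06, 4.86e-07 and 2.66e-06). Cone arrestin Arr3 (−1.96 ± 0.10 SE), the transducin genes Gnat2 (−1.85 ± 0.06) and Gnb3 (−1.82 ± 0.05) and the channel gene Cnga3 (−1.61 ± 0.16) had the largest log2-fold changes. Bipolar genes passed in 4 of 6 cases, with Cabp5 (0.86 ± 0.06) higher and Trpm1 (−0.62 ± 0.08), Grm6 (−0.61 ± 0.06) and Pcp2 (−0.37 ± 0.07) lower. Against untreated PRDM13-OE, 1 bipolar gene passed as higher and 3 as lower, and in the interaction 1 and 2. Rod genes passed as lower in 7 and 4 of 10 cases there. Of 6 amacrine genes, Gad1 (−0.30 ± 0.05) and Gad2 (−0.27 ± 0.06) fell, while 1 passed against untreated PRDM13-OE and 0 in the interaction. Of 5 Müller glia genes, Aqp4 (0.63 ± 0.06) was among 2 that rose and Rlbp1 (−0.45 ± 0.05) among 3 that fell, and of 5 reactive glia genes Lcn2 (0.92 ± 0.22) rose. Against untreated PRDM13-OE, 2 Müller glia genes passed as higher and 1 as lower, and in the interaction 1 and 1. Of the reactive glia genes, 1 passed as higher against untreated PRDM13-OE and 0 in the interaction. All 8 lens crystallins, 3 of 6 RPE genes, 1 of 6 sclera and choroid genes and all 5 red blood cell genes were lower in PRDM13-OE dox retinas, and none of 3 muscle genes passed. Against untreated PRDM13-OE, 1 lens crystallin, 0 RPE genes and 5 red blood cell genes passed as lower, and in the interaction 0, 0 and 4. The red blood cell genes summed to between 0.706 and 1.19 CPM in PRDM13-OE dox retinas and between 31.0 and 77.9 CPM in wildtype dox retinas, and 1 of the 5 was at 0 in all 3 PRDM13-OE dox retinas. Their part in the members' values was not tested.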

How the data were processed

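Counts and FPKM were used for 24 libraries, 12 retinas and 12 eye cups of the same mice, grouped by the labels. The submitters' processing notes name CASAVA, HISAT2 and GRCm39, without versions. The counting tool, annotation release and use of strand are not given in the sources used here. The authors deposited read counts per gene, which were the input to the tests, and FPKM values, scaled by depth and gene length, which were used only to compare genes with each other. The files also hold the authors' comparisons (group means of normalised counts, fold changes, p-values and adjusted p-values), which were not used.

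Genes with at least 10 counts over the libraries compared were fitted in edgeR 4.0.16 (TMM, quasi-likelihood, robust fitting off, Benjamini-Hochberg). Intervals are 95%, from the fold change and its F value. Alternatives were DESeq2 1.42.0, library size, no filter, filterByExpr, robust fitting, all 12 libraries, a replicate block, crystallin genes removed, crystallin or rod level as a covariate, no fold cutoff and 72 fits without 1 library each. Fits with a covariate took all 12 libraries of the tissue. Leaving out both wildtype dox retinas with most lens RNA was chosen after seeing the data. Ratios to rod genes used log2 of CPM + 0.5, with 0.1 or rod and cone genes as alternatives. Correlations used 100000 permutations. Python 3.11.15 and scipy 1.17.1 were used. The members and lists were chosen with earlier results of these data known. All members were named, with at most 4 genes per list that passed in the retina with dox, by fold change.

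On simulated retina counts with dox, edgeR recovered 100 of 100 genes changed by 1 and 100 of 100 changed by 2 on the log2 scale, over 20152 genes. It called 16 unchanged genes there. Neither smaller changes nor a difference in lens RNA between groups was simulated. On simulated eye cup counts, over 21153 genes, it recovered 1 and 59 of 100, and DESeq2 24 and 92, calling 3 and 48 unchanged genes. Within a tissue, each library was a separate mouse by its labels, each mouse gave 1 retina and 1 eye cup, and no pair of libraries were copies. Same-numbered mice of different groups did not deviate together throughout. Their correlations ran between −0.514 and 0.612. For the number 1 eye cups, dox against untreated, they were 0.612 in PRDM13-OE and 0.326 in wildtype. In no comparison was every pair over 0.1, so that the block was kept as an alternative.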

Additional observations from a re-analysis of the deposited data

Results flagged for a closer look

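The effect of dox differed between PRDM13-OE and wildtype retinas for 6 regulators, by the interaction term over 12 retinas (edgeR adjusted p under 0.05), where 1.83% of all genes passed as lower and 1.19% as higher. The difference in log2 was −1.42 for Nr2e3, −1.36 for Samd11 and −0.56 for Nrl, lower with dox in PRDM13-OE. It was 0.68 for Rorb, 0.44 for Thrb and 0.30 for Otx2. Within wildtype, the dox effect on these 3 was −0.37, −0.15 and −0.15, and within PRDM13-OE it was 0.31, 0.29 and 0.15. None of these passed on its own by edgeR as reported, whereas DESeq2 called Rorb in wildtype (adjusted p = 0.0375) and Thrb in PRDM13-OE (adjusted p = 0.0151). Nr2e3, Samd11 and Nrl passed under all 21 alternatives, whereas Rorb, Thrb and Otx2 passed under 9 of 21 each and not with a replicate block.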

How the results depend on the processing

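Counts below are of the 10 members. Without the fold cutoff, 6 in place of 2 were called between PRDM13-OE dox and wildtype dox retinas and in the interaction. Against untreated PRDM13-OE, 5 in place of 3 passed with library size and 5 without a filter. In wildtype retinas, dox against untreated gave 1 with DESeq2, 2 without a filter and 0 to 1 without 1 library, in place of 0. The interaction gave 3 with a replicate block and 3 to 5 without 1 library, in place of 6. Labels give no pairing between groups, and the block left the other counts within 1.5 times. In the eye cup, PRDM13-OE dox against wildtype dox gave 0 to 4 without 1 library, DEGs included, and against untreated PRDM13-OE 1, a DEG, with the rod covariate. How many of all genes passed in that covariate fit is not given here. Wildtype eye cups, dox against untreated, gave 3 with DESeq2 (1 DEG), 1 with library size, 1 without a filter and 0 to 3 without 1 library (0 to 1 DEG). Of all 21799 genes there, 2307 passed as higher and 1732 as lower with DESeq2, and 1143 and 205 with library size. The shares without a filter and without 1 library are not given here. The interaction with tissue gave 0 to 7 without 1 library (0 to 6 past the fold cutoff). Among single values that did not pass, those that changed sign included Crx (0.034) and Neurod1 (0.016) with library size, Rxrg (0.038) with the crystallin covariate, Crx in the eye cup (0.16) with the rod covariate, Samd11 between untreated retinas (−0.044) with the crystallin covariate and Nrl in wildtype retinas with dox (−0.013) without both lens-rich ones. Rxrg in the interaction with tissue went to 0.15 with library size, 0.062 without a filter and ran from −0.30 to 0.49 without 1 library. With the rod covariate, eye cup Neurod1 (0.49), Samd7 (0.43), Rorb (0.34), Rxrg (0.24) and Otx2 (−0.07) changed sign too. Over all member values and alternatives, 93 that had not passed changed sign, 48 lost and 42 gained a call. The cause was not tested. Library size moved the DEGs of all genes in the retina with dox from 186 higher and 309 lower to 279 and 269. Of all genes that passed, library size moved 421 higher and 610 lower against untreated PRDM13-OE to 677 and 472, and 269 and 413 in the interaction to 423 and 340. Whether depth or the spread between samples limits the eye cup calls was not tested.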
